A study of Mus musculus with 6 samples.

Results

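The fatty acid desaturases described here are 5 mouse genes, Scd1, Scd2, Fads1, Fads2 and Fads3, taken with every probe set of the array that carries 1 of these symbols and no other. They were covered by 13 of 45037 probe sets, 2 for Scd1, 3 for Scd2, 2 for Fads1, 3 for Fads2 and 3 for Fads3, and make up 5 of the 18193 genes with a probe set of their own. The rule goes by gene name alone, and the family was picked with earlier results of these data known. Transcripts of whole lung at E18.5 were measured on 6 MOE430 V2 arrays. Of these, 3 came from lungs labelled Scap d/d, in which Scap was deleted from respiratory epithelial cells, and 3 from lungs labelled control. All 6 were of a mixed FVB/N and B6 background, and the series title names alveolar type II cells. The promoter that drove the deletion and the genotype of the controls are not given in the sources used here. Nor is whether each RNA came from 1 animal. The p-values thus weigh a group difference against the variation among these samples, and that variation may be technical. The comparison asks how lung transcripts differ once the epithelium lacks Scap, the escort protein that the SREBP transcription factors need before they can be cleaved and enter the nucleus.

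Desaturases are membrane enzymes of the endoplasmic reticulum that place a double bond in a fatty acyl chain, using iron, oxygen and electrons handed on by cytochrome b5. The stearoyl-CoA desaturases, Scd1 and Scd2 among them, convert saturated into monounsaturated fatty acids. The front-end desaturases of the Fads family work on chains that already hold double bonds and lead from dietary essential fatty acids to arachidonate and its relatives. Scd and Fads genes are known targets of the SREBP factors. In the lung, type II cells of the alveolar epithelium make surfactant, whose main lipid carries saturated chains.

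Signals are linear array units, given for each array as deposited and averaged as mean ± SD over the 3 arrays of a group (n = 3). A log2 difference is the Scap-deleted mean minus the control mean, with limma's standard error (SE) and 95% interval, and a percent of control is the same difference on a linear scale. For each gene the probe set with the highest mean log2 signal was tested among 10972 genes (the gene fit), and every probe set was also tested among all 45037 (the probe set fit). Adjusted p-values are Benjamini-Hochberg over these families. The number of arrays limits the precision throughout: 3 against 3 arrays allow no exact permutation p below 0.1. Array medians lay between 498.5 and 513 signal units in Scap-deleted lungs and between 490.9 and 530.5 in control lungs. The arrays numbered 3 of both groups stood apart from the other 4 on the first principal component, which held 36.6% of the variance. Scap itself read 1847, 3286 and 2702 in Scap-deleted lungs and 7264, 4195 and 3080 in control lungs, 55.9% of control with overlapping groups (exact two-sided permutation p = 0.2), so it is a weak check of the labels. Whole lung holds many cell types, and fewer cells of a type cannot be told apart from less RNA per cell.

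All 5 desaturase genes had negative log2 differences, but by very unequal amounts: Scd1 stood at 16.5% of control, Scd2 at 68.9%, Fads1 at 69.0%, Fads2 at 87.6% and Fads3 at 94.2%. The median member stood at 69.0% of control, beside 100.4% for the median of all 10972 tested genes, of which 48.3% were negative. None of the 5 passed an adjusted p of 0.05 in the gene fit by limma, where 0.00911% of genes did (1 gene), and 0 of the 13 probe sets passed in the probe set fit, where 0% did. At an unadjusted p of 0.05, 3 of the 5 genes were lower, against 3.04% of all tested genes, and 7 of the 13 probe sets, against 3.46% of all probe sets. The arrays of the 2 groups did not overlap, with the Scap-deleted ones lower, in 4 of the 5 genes (background 5.72%) and in 8 of the 13 probe sets (background 6.35%), and 0 of the 5 genes (background 6.11%) and 0 of the 13 probe sets (background 4.35%) were separated the other way. No probe set was higher at an unadjusted p of 0.05 (0 of 13, background 1.85%). The plot of signals by array shows these values for each probe set.

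**Figure D1:**
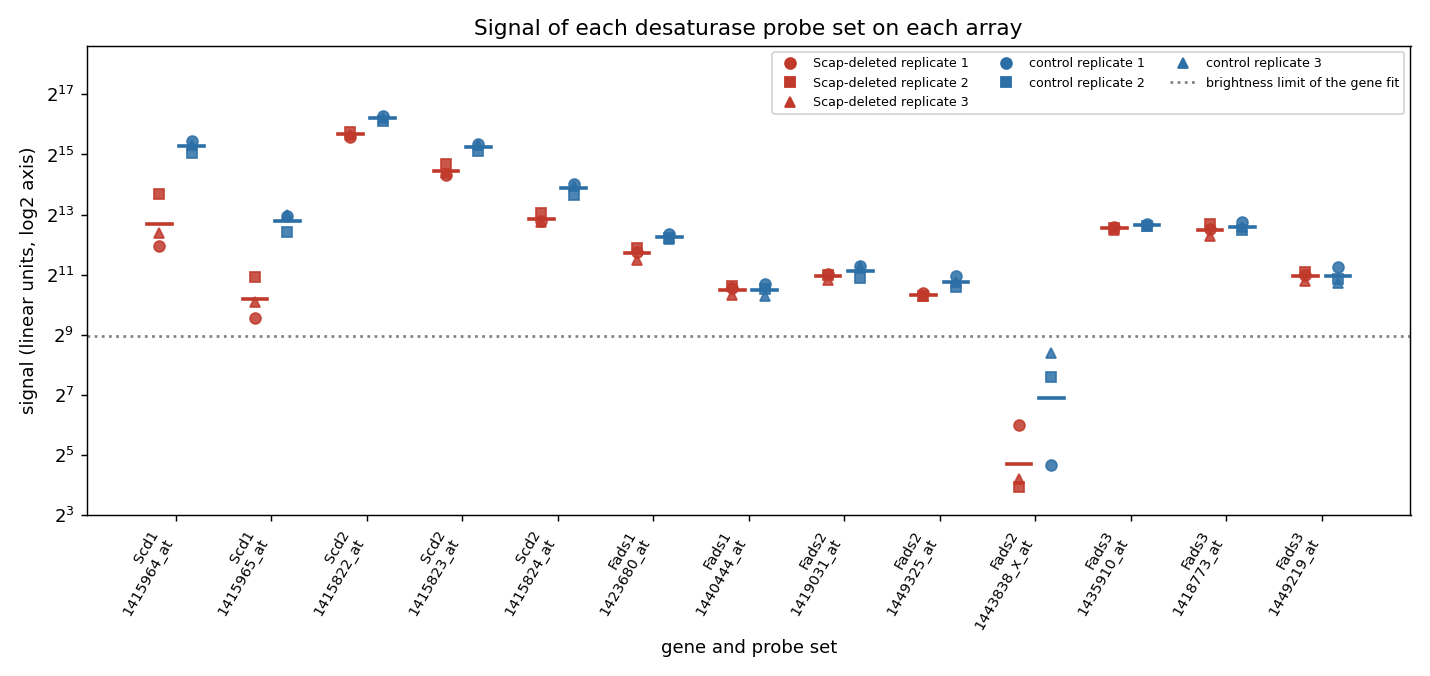
Signal of the 13 desaturase probe sets (linear units on a log2 axis) in 3 Scap-deleted (red, left of each pair) and 3 control (blue, right) arrays, with horizontal bars at the group means of the log2 signal and a dotted line at the brightness limit of 497.8. Scap-deleted points lie below every control point in 8 probe sets, farthest in the 2 of Scd1, and 1 Fads2 probe set lies below the limit.

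Scd1, the stearoyl-CoA desaturase best known from liver, fat and skin, had the largest negative difference of all 10972 tested genes. Its brightest probe set, 1415964_at, read 4018, 13085 and 5389 in Scap-deleted lungs and 44718, 34231 and 40902 in control lungs. Every Scap-deleted array was thus far below every control array, and replicate 2 of the Scap-deleted lungs was the highest of its group. The means were 7497 ± 4887 in Scap-deleted and 39951 ± 5308 in control lungs, a log2 difference of -2.60 (SE 0.39, 95% interval -3.52 to -1.68, unadjusted p = 2.4e-04 and adjusted p = 0.319 by limma; exact permutation p = 0.1). The second probe set, 1415965_at, gave the same size of difference at a lower brightness. It read 756, 1922 and 1096 in Scap-deleted lungs and 7933, 5484 and 8030 in control lungs, 16.6% of control (log2 difference -2.59, SE 0.39, limma adjusted p = 0.438 in the probe set fit). The log2 ratio of the 2 probe sets within an array overlapped between the groups and differed by 0.0035 on average (exact permutation p = 1).

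The Scap-deleted arrays disagreed among themselves on Scd1 more than the control arrays did. On the log2 scale its SD was 0.89 in Scap-deleted and 0.20 in control lungs for the brightest probe set, and for the other it was 0.68 in Scap-deleted and 0.31 in control lungs. The pooled spread of the brightest probe set exceeded that of 98.7% of probe sets above the brightness limit. Compared within replicate numbers, Scd1 differed by -3.48, -1.39 and -2.92 log2 for numbers 1, 2 and 3. Whether Scd1 passed turned on 1 array: it did not pass with all 6, and without Scap-deleted replicate 2 it did (log2 difference -3.09, limma adjusted p = 0.0127), while leaving out any other array gave adjusted p from 0.301 to 0.850.

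Scd2, the isoform prominent in brain and in perinatal tissues of the mouse, was lower on all 3 of its probe sets, and the size differed between them. The brightest, 1415822_at, read 49583, 55523 and 51895 in Scap-deleted lungs and 80208, 71487 and 76092 in control lungs. The groups were well apart, and the spread within each was small. The means were 52334 ± 2994 in Scap-deleted and 75929 ± 4363 in control lungs (log2 difference -0.54, SE 0.10, 95% interval -0.76 to -0.31, unadjusted p = 6.6e-04 and adjusted p = 0.478 by limma). Probe set 1415823_at read 20204, 26075 and 21240 in Scap-deleted lungs and 41851, 35127 and 40694 in control lungs, 57.2% of control. Probe set 1415824_at read 7017, 8491 and 6894 in Scap-deleted lungs and 16415, 12956 and 15874 in control lungs, 49.6% of control (log2 difference -1.01, SE 0.16, limma adjusted p = 0.447 in the probe set fit).

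The Scd2 difference was thus smaller the brighter the probe set. Relative to the brightest probe set on the same array, 1415823_at differed by a further -0.27 log2 and 1415824_at by -0.48 log2, each with no overlap of the groups (exact permutation p = 0.1). The brightest Scd2 probe set ranked 97 among 45037 in mean signal, the next 362 and the dimmest 1613, while the brightest Scd1 probe set ranked 891. Whether signal near the top of the scale understates differences was not tested. With the mean over its probe sets, Scd2 differed by -0.79 log2 (limma adjusted p = 0.323).

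Fads1, the front-end desaturase of the later step on the way to arachidonate, gave different answers on its 2 probe sets. Probe set 1423680_at read 3433, 3815 and 2866 in Scap-deleted lungs and 5210, 4734 and 4624 in control lungs, so the groups did not overlap. The means were 3371 ± 477 in Scap-deleted and 4856 ± 312 in control lungs (log2 difference -0.53, SE 0.13, 95% interval -0.83 to -0.24, unadjusted p = 0.0034 and adjusted p = 0.671 by limma). The dimmer 1440444_at read 1511, 1590 and 1278 in Scap-deleted lungs and 1661, 1463 and 1246 in control lungs. Those groups overlapped throughout, at 100.5% of control (95% interval 75.1% to 134%, exact permutation p = 1). The log2 ratio of the dimmer to the brighter probe set did not overlap between the groups (a difference of 0.54, exact permutation p = 0.1). The parts of the transcript that each probe set reads are not given in the sources used here. With the mean over both, Fads1 differed by -0.26 log2 (limma adjusted p = 0.912).

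Fads2, which takes the first desaturation step on linoleic and alpha-linolenic acids, gave differences of unequal size on its 3 probe sets. The brightest, 1419031_at, read 2074, 2058 and 1801 in Scap-deleted lungs and 2487, 1879 and 2449 in control lungs. The groups overlapped because control replicate 2 lay among the Scap-deleted arrays. The means were 1978 ± 153 in Scap-deleted and 2272 ± 340 in control lungs (log2 difference -0.19, SE 0.14, 95% interval -0.51 to 0.13, limma adjusted p = 0.900). Probe set 1449325_at read 1339, 1251 and 1244 in Scap-deleted lungs and 2009, 1530 and 1744 in control lungs. Here the groups did not overlap, and the Scap-deleted signal was 73.0% of control (95% interval 56.7% to 93.9%, limma adjusted p = 0.893; exact permutation p = 0.1). The third, 1443838_x_at, was dim and scattered, at 65, 15 and 18 in Scap-deleted lungs and 25, 196 and 338 in control lungs, and it lay below the brightness limit of the gene fit. Without control replicate 2 the log2 difference of the brightest probe set was -0.32 (limma adjusted p = 0.799). With the mean over all 3 probe sets, which gives the dim one equal weight, it was -0.94 (adjusted p = 0.856).

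Fads3, a family member described as acting on the sphingoid base of ceramides, was nearly level. Its brightest probe set, 1435910_at, read 6217, 6077 and 5761 in Scap-deleted lungs and 6642, 6242 and 6272 in control lungs. The groups did not overlap, but the gap was narrow, with means of 6018 ± 234 in Scap-deleted and 6386 ± 223 in control lungs (log2 difference -0.09, SE 0.09, limma adjusted p = 0.941). The 95% interval ran from 81.7% to 109% of control in the gene fit and from 77.9% to 114% in the probe set fit. Probe set 1418773_at stood at 93.4% and 1449219_at at 101.6% of control, both with overlapping groups.

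**Figure D2:**
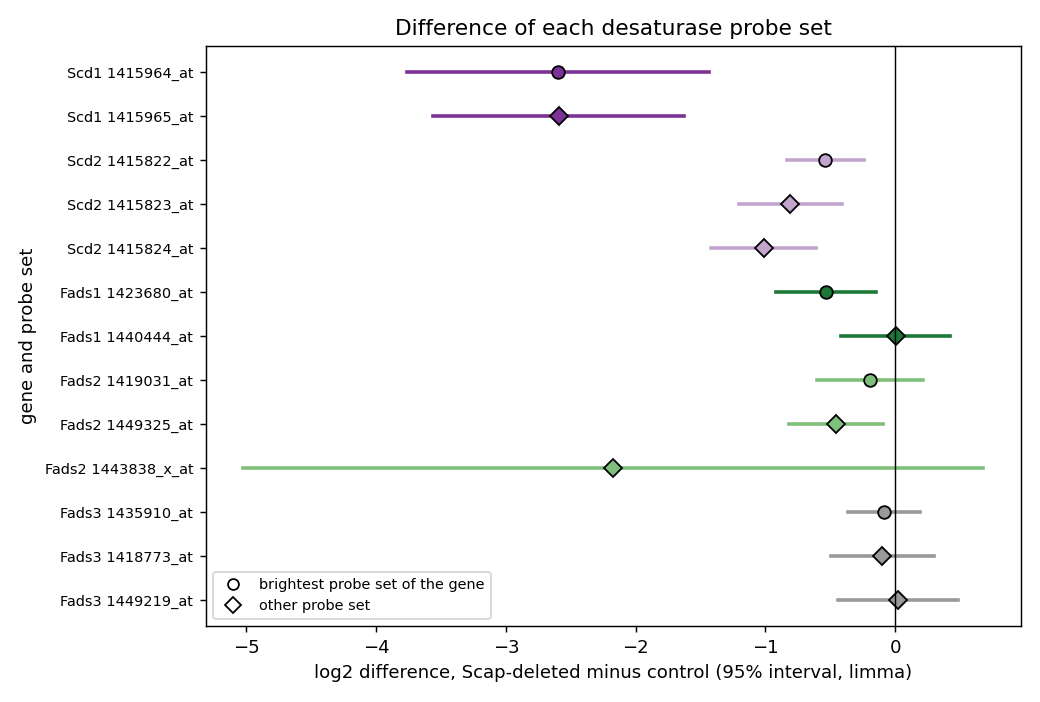
Log2 difference, Scap-deleted minus control, of each of the 13 desaturase probe sets with its 95% interval from limma in the probe set fit; circles are the brightest probe set of each gene and diamonds the others. Both Scd1 probe sets lie near -2.6, the 3 of Scd2 between -1.01 and -0.54, and the intervals of the 3 Fads3 probe sets span 0.

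The promoter sequences used here (GRCm38.p6) did not include Scd1, Scd2 or Fads1, so the promoters of these genes were not searched. Of the 5 genes, 2 were covered, Fads2 and Fads3. They are shown, 5′ to 3′, as the 250 bases before each transcript start, with matches to the searched motifs in capitals: the Fads2 window lies at chr19:10101504-10101753 on the minus strand and the Fads3 window at chr19:10041298-10041547 on the plus strand.
Fads2: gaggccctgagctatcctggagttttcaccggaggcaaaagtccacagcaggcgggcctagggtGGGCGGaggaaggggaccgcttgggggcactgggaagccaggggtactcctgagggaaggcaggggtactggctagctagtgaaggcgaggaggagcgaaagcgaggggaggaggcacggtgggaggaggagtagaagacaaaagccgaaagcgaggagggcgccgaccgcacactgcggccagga
Fads3: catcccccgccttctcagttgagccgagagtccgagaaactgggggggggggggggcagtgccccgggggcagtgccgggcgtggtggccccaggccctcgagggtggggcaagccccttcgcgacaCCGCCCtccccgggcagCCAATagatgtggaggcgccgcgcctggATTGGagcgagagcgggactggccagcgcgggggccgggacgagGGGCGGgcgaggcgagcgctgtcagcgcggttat
Both strands were searched for 4 motifs: the sterol regulatory element TCACNCCAC that SREBP factors bind, the CCAAT box CCAAT of NF-Y, the GC box GGGCGG of Sp1 and the E box CACGTG. Fads2 held 1 GC box and no CCAAT box, whereas Fads3 held 2 GC boxes and 2 CCAAT boxes, 1 of each on either strand. Neither window held the sterol regulatory element or the E box. Of all 32851 promoter windows of this length, 32.7% held a GC box, 33.8% a CCAAT box, 1.05% the sterol regulatory element and 6.02% the E box, and no capitals overlap between motifs in the windows shown.

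The difference of Scd1 was larger than that of each relative, as far as 3 against 3 arrays can show. The log2 ratio of Scd1 to Scd2 within an array was -3.63, -2.09 and -3.27 in Scap-deleted lungs and -0.84, -1.06 and -0.90 in control lungs, which leaves a gap of more than 1 log2 unit between the groups. As a percent of control, Scd1 stood lower than Scd2 by a factor of 4.17, than Fads1 by 4.17, than Fads2 by 5.29 and than Fads3 by 5.70. Each gene is taken here by its brightest probe set. With the mean over probe sets the excess over Fads2 was -1.65 log2 in place of -2.40, and that over Scd2 was -1.81 in place of -2.06. None of these 4 ratios overlapped between the groups, and each had an exact two-sided permutation p of 0.1, also 0.1 after Benjamini-Hochberg adjustment over the 4 pairs, the smallest that these arrays allow. With arrays paired by replicate number the exact p was 0.25 for each of the 4 ratios, the smallest that 3 pairs allow. The choice to set Scd1 against the others was made with earlier results of these data known.

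The spread among arrays within a group was shared by several of the genes. Scap-deleted replicate 2 had the highest signal of its group in 9 of the 12 desaturase probe sets above the brightness limit, where 33.2% of all such probe sets did. Control replicate 2 was the lowest of its group in 9 of the 12, against 37.8% of all, and both held together in 6 of the 12, against 9.88% of all. The 6 include every probe set of Scd1 and of Scd2, so these counts are not counts of separate genes. By brightest probe set, Scap-deleted replicate 2 was not the highest for Fads2 (92.0%, 91.3% and 79.9% of the control mean in replicates 1 to 3). Nor was it for Fads3 (97.4%, 95.2% and 90.2%). For Scd1, Scap-deleted replicate 2 stood at 33.0% of the control mean, and replicates 1 and 3 stood at 10.1% and 13.6%. For Fads1 replicate 2 stood at 78.7% and replicates 1 and 3 at 70.8% and 59.1%. The same array also read highest of its group for Scap itself, at 72.3% of the control mean against 40.6% and 59.5% in replicates 1 and 3, for Srebf1 (70.5%), for Fasn (72.7%) and, by a small margin, for Insig1 (42.8%). The part of leftover Scap signal in the spread of Scd1 was not tested.

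**Figure D3:**
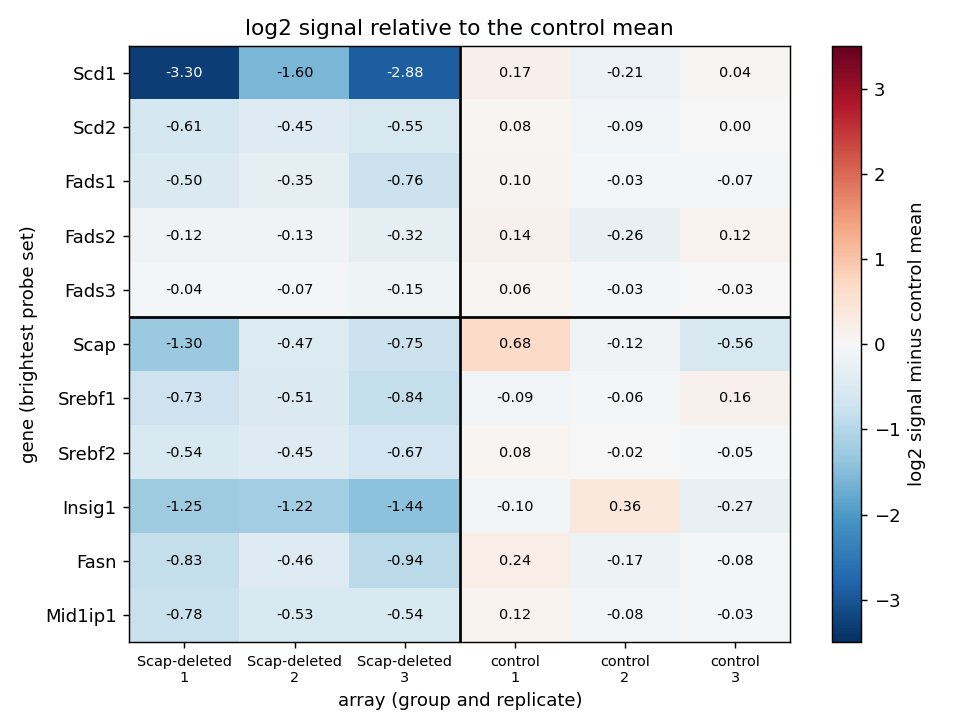
Log2 signal minus the control mean in the 3 Scap-deleted arrays (left) and 3 control arrays (right) for the 5 desaturases (above the line) and 6 genes of SREBP processing and fatty acid synthesis (below it), each by its brightest probe set. Scd1 is at -3.30, -1.60 and -2.88 in the Scap-deleted arrays, and the array at -1.60 is also the least reduced in Scap, Scd2, Fads1 and Fasn.

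Of the tested genes that regulate the desaturases, Insig1, Scap, Srebf1 and Srebf2 stood lowest against control, while other genes of the SREBP system stood near it. Of 16 tested regulators, 11 were negative and 0 passed an adjusted p of 0.05 by limma. At an unadjusted p of 0.05, 5 were lower and 0 higher, against 3.04% lower and 2.88% higher among all tested genes. Scap is the deleted gene and is counted in the 16, the 11 and the 5, so it says nothing of the other regulators. Insig1, which keeps Scap from leaving the endoplasmic reticulum and is a target gene of SREBP, read 1517, 1541 and 1329 in Scap-deleted lungs and 3365, 4635 and 2995 in control lungs, 40.5% of control. Srebf1, the gene of the SREBP form tied to fatty acid synthesis, stood at 61.9% and Srebf2, that of the form tied to cholesterol synthesis, at 68.2% of control, both with groups apart. The proteases that cleave SREBP, Mbtps1 and Mbtps2, stood at 104.6% and 103.1%, Insig2, a relative of Insig1, at 95.2% (its other probe sets above the limit at 104.4% and 105.3%), and the liver X receptor gene Nr1h3 at 95.3%. The NF-Y subunit genes and Sp1 lay between 96.0% and 102.6% of control. The nuclear receptor gene Ppard, also past an unadjusted p of 0.05, stood at 76.1% with overlapping groups.

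Of the genes that supply saturated chains to the desaturases, all 8 tested had negative differences, where 48.3% of all tested genes did, and the median was 82.0% of control. At an unadjusted p of 0.05, 3 of the 8 were lower (3.04% of all tested genes) and the other 5 did not pass, and 0 passed an adjusted one. Fasn, the synthase that makes palmitate, read 10239, 13213 and 9491 in Scap-deleted lungs and 21520, 16200 and 17252 in control lungs, 59.8% of control (limma adjusted p = 0.671). Mid1ip1, an activator of acetyl-CoA carboxylase, stood at 65.2%, and Acaca, the carboxylase itself, at 78.2% of control (its other probe set above the limit at 60.6%). Elongases and their partners, which lengthen the chains before or after desaturation, were close to level: 8 of 10 tested genes were negative with a median at 94.8%, none was past an unadjusted p of 0.05, and the one of smallest p, the dehydratase Hacd3, stood at 111.7%.

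The redox partners of the desaturases went both ways. Of 5 tested genes of the cytochrome b5 system, 2 were negative, the median stood at 100.5% of control, and 0 passed an adjusted p. Cyb5a, which hands electrons to the desaturases, read 17428, 17558 and 19611 in Scap-deleted lungs and 16695, 17018 and 19067 in control lungs. Cyb5r3, the reductase that recharges it, stood at 96.9%, and Cyb5r1 stood at 127.6% (limma adjusted p = 0.793, past an unadjusted p of 0.05, with overlapping groups). Cyb5b, the form of the outer mitochondrial membrane, stood at 85.2%, with other probe sets above the limit at 76.5% and 83.6%. Among other enzymes of the wider desaturase and hydroxylase family, 3 of 4 tested genes were negative and none was past an unadjusted p of 0.05. The lowest of these was Msmo1, a sterol oxidase of cholesterol synthesis, at 73.1%, while Degs1, the dihydroceramide desaturase, stood at 87.0%.

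Genes listed as users of unsaturated acyl chains had negative differences in 8 of 12 tested cases, against 48.3% of all tested genes. Their median stood at 88.5% of control, and not all of them take unsaturated chains alone. At an unadjusted p of 0.05, 4 of the 12 were lower (3.04% of all tested genes) and 0 passed an adjusted one. The 4 were Lpcat1, with a log2 difference of -0.41, the acyl-CoA synthetases Acsl3 at 74.5% and Acsl4 at 78.0%, and Gpam at 82.1% of control. Lpcat1 builds surfactant phosphatidylcholine, the main form of which carries saturated chains, and Gpam starts glycerolipid synthesis. The 4 of 12 is thus not a count for unsaturated chains alone. Other probe sets above the limit read 60.7% for Acsl3, 62.6% to 64.9% for Acsl4 and 66.4% for Gpam. Of 7 tested genes that turn arachidonate into eicosanoids, 4 were negative with a median at 99.6%. The 1 past an unadjusted p of 0.05 was Ptgis, the prostacyclin synthase, lower at 73.1% (3.04% of all tested genes were lower). Groups lay apart with Scap-deleted lungs lower in 2 of the 7 (background 5.72%) and higher in 0 (background 6.11%).

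**Figure D4:**
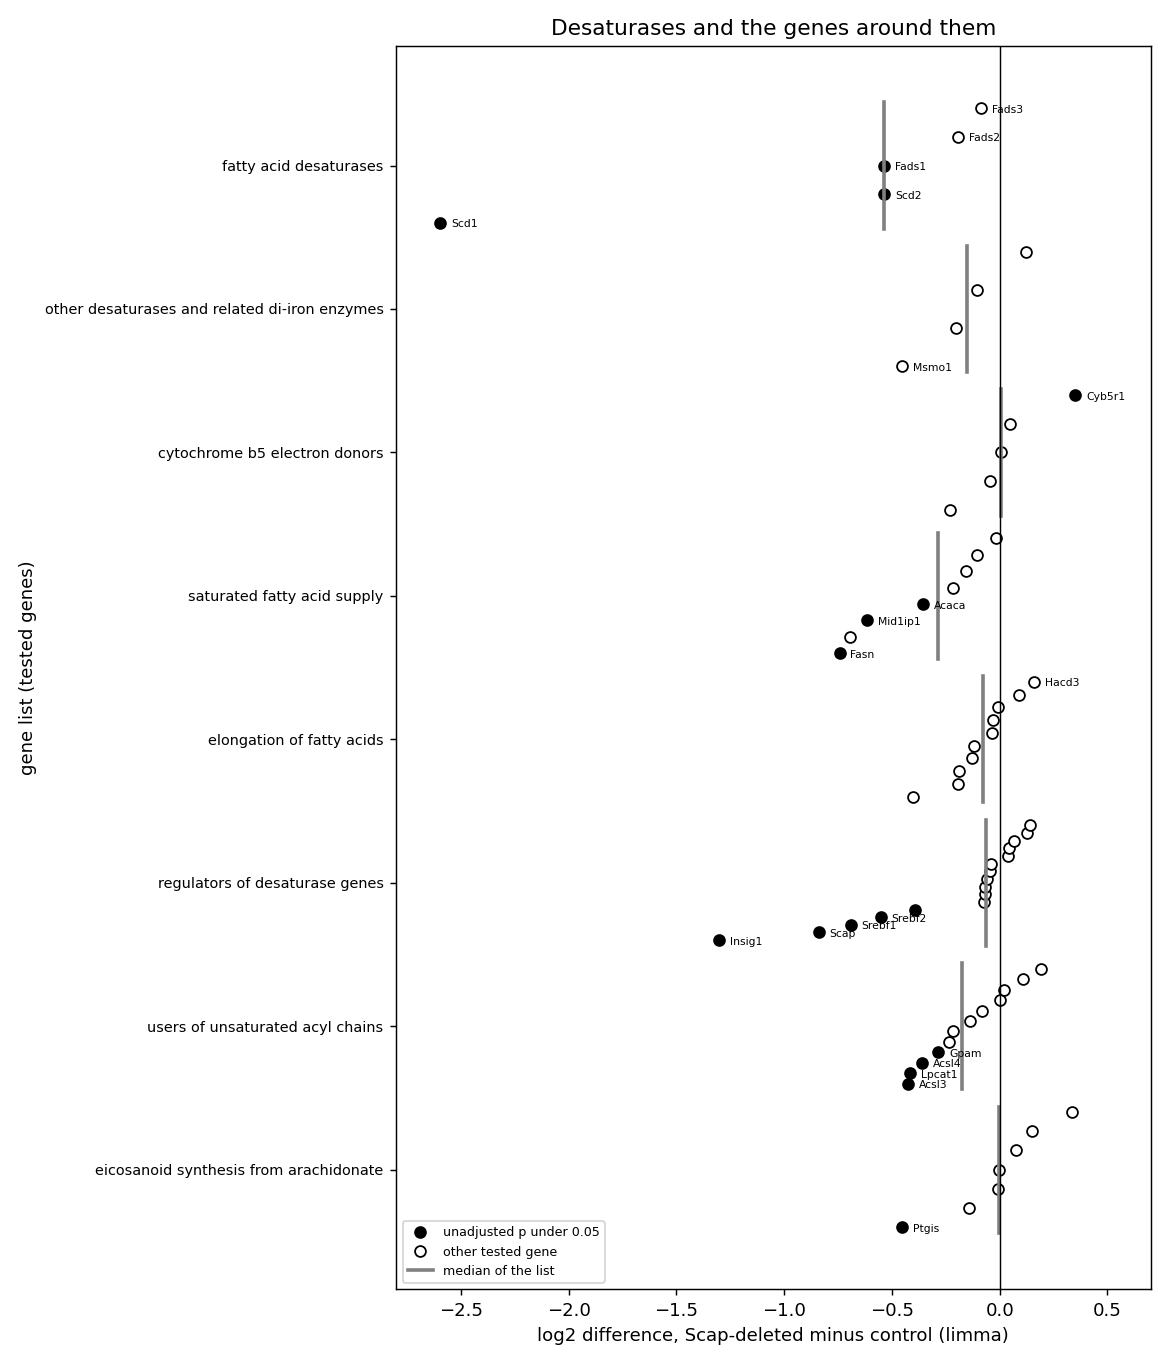
Log2 differences, Scap-deleted minus control, of the 5 desaturases and of the tested genes in 7 lists around them; filled points have an unadjusted limma p under 0.05, and grey bars are list medians. Scd1 lies at -2.60, beyond Insig1 at -1.30, and the elongation, cytochrome b5 and eicosanoid lists have medians near 0.

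All 5 genes lie on chromosome 19, in 2 clusters. In the RefSeq order of GRCm38.p6, Fads3, Fads2 and Fads1 follow each other, and Scd3, Scd2, Scd4 and Scd1 form the other cluster. The nearest 2 tested genes on either side of each cluster stood between 90.8% and 134.8% of control. Ndufb8 and Hif1an beyond Scd1 stood at 100.2% and 101.6% of control, and Bloc1s2 and Cwf19l1 before Scd3 at 94.4% and 96.4%. Around the Fads genes, Fth1 stood at 99.5%, Rab3il1 at 122.9%, Fen1 at 134.8% and Tmem258 at 90.8%, all with an unadjusted limma p above 0.05. Scd3, whose name places it with the stearoyl-CoA desaturases, was too dim to test, at 198, 125 and 21 in Scap-deleted lungs and 174, 458 and 177 in control lungs.

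The defining markers of the labelled tissue were bright. Sftpc, the surfactant protein C gene of type II cells, read 97286 ± 6167 in Scap-deleted and 97440 ± 15052 in control lungs. All 9 type II markers with a probe set were tested, and 7 were negative (median 89.6% of control). At an unadjusted p of 0.05, 4 of the 9 were lower, against 3.04% of all tested genes, and 2 had groups apart with Scap-deleted lungs lower, against 5.72%. The 4 were Lpcat1, given above, Sftpa1 at 45.5%, Sftpb at 76.5% and Abca3, the lamellar body lipid transporter, at 63.9% of control. Other Abca3 probe sets above the limit stood at 66.1% and 119.6%. Sftpa1 read 14767, 12965 and 35042 in Scap-deleted lungs and 39988, 36559 and 48755 in control lungs, so Scap-deleted replicate 3 lay near the controls. None of the 4 passed an adjusted p of 0.05, and the groups of Sftpb and Abca3 overlapped. These 4 type II markers thus stood lower beside Scd1, Scd2 and Fads1. The rest of the list, Etv5, Sftpd, Slc34a2, Napsa and Sftpc, stood between 89.6% and 100.6% of control by their brightest probe sets. The part of type II markers in the desaturase differences was not tested. The summed signal of the list was 304175 to 363275 in Scap-deleted lungs and 346344 to 423438 in control lungs, so the ranges overlapped. Of 10 general epithelial markers 4 were negative, with a median at 103.0%, Nkx2-1 at 98.6% and Cdh1 at 109.8%. At an unadjusted p of 0.05, 1 was lower and 1 higher, against 3.04% and 2.88% of all tested genes. These were Epcam at 77.3% (its other probe set above the limit at 87.4%) and Cldn4 at 135.9%. Groups lay apart in 2 with Scap-deleted lungs lower and in 1 with them higher, against 5.72% and 6.11%. The sums were 92230 to 95433 in Scap-deleted and 88444 to 93924 in control lungs. Of the lipofibroblast list 4 of 5 tested genes were negative, with a median at 95.5%, Plin2 at 91.6%, Tcf21 at 95.5% and sums of 81644 to 96517 in Scap-deleted and 81067 to 96940 in control lungs.

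Markers of cells rich in desaturases outside the lung differed in brightness. Of 7 adipocyte markers with a probe set, 1 was bright enough to test, Fabp4 at 123.4% of control with overlapping groups, Adipoq read at most 157 on any array, and sums were 2936 to 5836 in Scap-deleted and 2165 to 3439 in control lungs. None of 5 hepatocyte markers was bright enough to test, but their sum was 462 to 591 in Scap-deleted and 645 to 2709 in control lungs. Alb read 257, 133 and 261 in Scap-deleted lungs and 1800, 1048 and 219 in control lungs, so the groups overlapped. Apoa2 at 60.4% and Ttr at 24.5% of control had groups apart, with Scap-deleted lungs lower. Of 4 tested Schwann cell and nerve markers, 2 were negative, and sums were 34245 to 36672 in Scap-deleted and 31207 to 37334 in control lungs. The sum was carried mostly by Pmp22 (98.5% of control), at 24836 ± 1259 in Scap-deleted and 25296 ± 2644 in control lungs. Sox10 read only 661 ± 129 in Scap-deleted and 681 ± 87 in control lungs, and Mag was too dim to test. The sum therefore says little of the other markers.

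Among the other cell types, the endothelial list had 5 of 6 members negative, where 48.3% of all tested genes were. Its median stood at 86.1% of control, Pecam1 at 86.5% and Cdh5 at 85.7%. At an unadjusted p of 0.05, 1 was lower and 0 higher, against 3.04% and 2.88% of all tested genes. Groups lay apart in 2 with Scap-deleted lungs lower and in 0 with them higher, against 5.72% and 6.11%. The sums were 62045 to 69437 in Scap-deleted and 69287 to 76602 in control lungs. Leukocyte markers had 2 of 6 tested genes negative, with Ptprc at 115.8% and Cd68 at 101.7%. Their sums did not overlap, at 43563 to 60655 in Scap-deleted and 63850 to 79061 in control lungs, and the sum was carried by Lyz2 (57.7% of control), which type II cells also express. Both tested erythroid markers were negative, with Alas2 at 80.5% and sums of 13118 to 17225 in Scap-deleted and 16208 to 19319 in control lungs. Hba-a1 read at most 145, while Alas2 read 12090 ± 1869 in Scap-deleted and 14978 ± 1833 in control lungs. Whether the Hba-a1 probe set reports its transcript was not tested, so its low signal is no measure of red cells. Smooth muscle markers had 1 of 4 tested genes negative, with Acta2 at 109.0%, Myh11 at 104.0% and sums of 32877 to 37514 in Scap-deleted and 28617 to 35785 in control lungs. No marker was at 0 on any array, and the part of cell makeup in the desaturase differences was not tested.

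The genes whose signal followed each desaturase most closely over the 6 arrays were picked by Pearson correlation among the other tested genes, as a description. The 6 arrays form 2 groups. For Scd1, Scd2 and Fads1, whose groups lay well apart, such a correlation mostly restates the difference between the groups. For Fads2, whose groups overlapped, and Fads3, whose gap was narrow, it also follows scatter within the groups. Adcy2, the gene closest to Fads2, had a log2 difference of only -0.06. For Scd1 they were Adam19, Lpar1 and Actr5 (r from 0.979 to 0.994), and for Scd2 Gatd3a, Mid1ip1 and Arvcf (0.987 to 0.990). For Fads1 they were Mettl6, Fgfr2 and Tns1 (0.987 to 0.998), for Fads2 Adcy2, Ccrl2 and Adat2 (0.985 to 0.986), and for Fads3 Msra, Efcab7 and Sema3c (0.982 to 0.988). Of these 15 genes only Mid1ip1 belongs to a list used here.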

How the data were processed

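RNA of 6 whole-lung samples was labelled with biotin and read on MOE430 V2 arrays, per the labels. The authors deposited a table of intensity values, linear and not logged, with 45101 probe sets on every array. RMA is the tool in the submitters' processing notes, with no version, yet the signals are linear, start at 0.2 and have a mean of 1500 on each array once 2% is trimmed from either end. Array medians were 513, 503.2 and 498.5 in Scap-deleted and 509.2, 530.5 and 490.9 in control replicates 1 to 3. How background was corrected is unknown here, and no detection calls were used.

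Signals were turned into log2 values with no pseudocount, after 64 Affymetrix controls had been removed. In the platform annotation 34945 probe sets carried 1 symbol, 932 several and 9160 none. RefSeq's gene table of GRCm38.p6 held the Entrez ID of 34741 of them, and 0 symbols changed. Genes with a mean signal under 497.8, the median probe set, stayed out of the gene fit. Both fits were made with lmFit and eBayes (limma 3.58.1, R 4.3.3), no covariate and 4 residual degrees of freedom. Permutation tests were exact and two-sided. The gene fit was run on simulated data (10972 genes, 200 changed, 20 runs) with independent normal noise. It called 98.6% of genes lowered by 2.6 log2 and 77.7% of those lowered by 1 log2, with 5.33% and 4.42% of calls false. With 200 genes lowered alike, the adjusted threshold is easier to pass than in the data, where 1 gene passed. These shares are therefore not the power for the desaturases: Scd1 differed by -2.60 log2 with a limma adjusted p of 0.319.

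The members, the lists and the rule for named genes were chosen with earlier results of these data known: all 5 members; from each pathway list up to 4 tested genes of smallest unadjusted p among those at or below 0.05, otherwise the 1 of smallest p; the first 2 genes of each marker list (some of these are not reported here); and 3 genes most like each member. Sftpd, Napsa, Slc34a2, Etv5, Sox10 and Mag were named after their values were seen. So were Lyz2, Sftpc, Abca3, Lpcat1 as a marker, Epcam, Cldn4, Ttr, Fabp4, Pmp22, Insig2, Ppard and Cyb5b. So were Mbtps1, Mbtps2, Nr1h3, the NF-Y genes, Sp1, Cyb5a, Cyb5r3, Degs1, Scd3 and the chromosomal neighbours.

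Titles number both groups 1 to 3. Once each group's mean was taken off, same-numbered arrays correlated over genes at 0.17 for number 1, at 0.20 for number 2 and at 0.43 for number 3, and unlike-numbered arrays at -0.30 to 0.18. Scap-deleted replicate 1 correlated as well with control replicate 2 (0.18) as with its own number. Each own pair exceeds 0.1, but so does this unlike pair. Taking off the mean of 3 arrays also ties these values together, so the match of number 3 raises those among numbers 1 and 2. The numbers may pair the arrays, but these values cannot settle it. The pairing rests on the titles and the data only; the main fits leave it out, and the replicate number enters as an alternative. Alternatives were quantile normalization, a pseudocount of 64, other brightness filters, the mean over probe sets, an intensity trend, each array left out, both arrays numbered 3 left out, and the replicate number as a block.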

Additional observations from a re-analysis of the deposited data

How the results depend on the processing

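All 5 desaturase genes kept a negative log2 difference in each of the 14 alternatives, and the count of genes past an adjusted p of 0.05 differed from 0 in 1 of them. Without Scap-deleted replicate 2 that count was 1, Scd1, with a log2 difference of -3.09; over the arrays left out in turn the count ran from 0 to 1 and the Scd1 difference from -3.09 to -2.24. With the replicate number as a block, Scd1 differed by -2.60 (limma adjusted p = 0.246) and Scd2 by -0.54 (adjusted p = 0.317), and the block changed no call. Over all alternatives Scd2 ran from -0.79 to -0.50, Fads1 from -0.63 to -0.26, Fads2 from -0.94 to -0.07 and Fads3 from -0.11 to -0.05. With an intensity trend the adjusted p of Scd1 was 0.0931. No member probe set passed in any of the 11 alternatives of the probe set fit, and 5 to 7 were lower at an unadjusted p of 0.05. The excess of the Scd1 difference over those of the other 4 genes kept its sign in all 11 alternatives run for it, from -3.00 to -1.65; filters and the trend do not bear on it. With 3 arrays per group, and no measure of signal over background, dim probe sets such as 1443838_x_at limit what can be said of Fads2.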
